A study of Mus musculus with 9 samples.

Results

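The genes described here are 7 aldo-keto reductases, Akr1a1, Akr1b7, Akr1b8, Akr1c12, Akr1c13, Akr1c14 and Akr1c18, chosen by gene symbol with their signals on these arrays already known. Of the 7, 6 have a named probe set (1 each) among 19505 named genes, and 5 have a mean in at least 1 cell line above the brightest background probe set. No probe set is named Akr1b7, so its signal was not analysed here, and only its promoter sequence enters below. Because the members were chosen with their values in view, their levels and differences are given as a description, with no p-value. The members were measured in Pan02 cells, a mouse pancreatic ductal adenocarcinoma line, on 8 Clariom S arrays, 1 for each of 4 transduced lines in each of 2 media. Pan02OE cells carry a lentiviral open reading frame of Nlrx1, which encodes a mitochondrial NOD-like receptor, and Pan02OE-CTL cells carry control particles of the same kind. Cells labelled Pan02KD received a single shRNA against Nlrx1, and Pan02KD-CTL cells a scrambled shRNA. All 4 lines carry a lentiviral construct with a GFP tag and passed puromycin selection. RNA was taken from each line in normal medium and after 24 hours in medium with low-dose H2O2. A line is a single transduced population, so its 2 arrays differ in medium, and the spread between them is that of these arrays and not of separately derived lines.

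The signal of Nlrx1, the targeted gene, was 17.10 and 17.31 (log2, normal medium and H2O2) in Pan02OE and 6.89 and 6.90 in Pan02OE-CTL, at least 847-fold, as the control mean is below background (measured difference 10.3, SE 0.175, limma adjusted p = 7.53e-09). It was 6.68 and 6.56 on the arrays labelled Pan02KD and 5.96 and 6.40 in Pan02KD-CTL. The signal was thus not lower on the arrays labelled Pan02KD (difference 0.44, SE 0.175, adjusted p = 0.146). Every reading outside Pan02OE is under 7.48, the highest of the 23 background probe sets. These arrays therefore do not show the knockdown and cannot tell whether the mRNA was lowered. The paper checked its lines for NLRX1 protein by western blot. Every direction given below for this line is that of the arrays labelled Pan02KD. The median of all genes lay between 6.51 and 6.58 on the 8 arrays. Of the ductal epithelial markers 6 of 7 measured, among them Krt7, Krt8, Krt18 and Krt19, lay above background in all 4 lines, while Epcam did not (4.49 to 4.68). None of the 5 acinar, 3 islet, 4 leukocyte or 4 endothelial markers measured lay above background in any line. Of 6 mesenchymal and fibroblast markers Vim lay above it in all lines, Pdgfrb in both knockdown-system lines, and Dcn only on the arrays labelled Pan02KD (10.5).

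Aldo-keto reductases are enzymes of the cytosol that reduce aldehydes and ketones with NADPH. Their substrates include sugars, retinal, lipid aldehydes formed when membranes are oxidised, steroids and prostaglandins, and several members of the family are known targets of NRF2, the transcription factor of the antioxidant response. In the mouse the genes of the Akr1c subfamily stand beside each other in a cluster on chromosome 13, and those of the Akr1b subfamily in a cluster on chromosome 6.

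The 250 bases before the annotated start of 3 of the members are shown, because Akr1c18 has the largest difference between lines and its cluster neighbours Akr1c12 and Akr1c13 have nearly the same sequence. They are RefSeq sequences of assembly GRCm38.p6, read 5′ to 3′ in the direction of the gene, from chr13:4150647-4150896 (minus strand) for Akr1c18, chr13:4279400-4279649 (minus strand) for Akr1c12 and chr13:4190937-4191186 (plus strand) for Akr1c13. Capitals in Akr1c12 and Akr1c13 mark the bases at which that pair differs.
Akr1c18: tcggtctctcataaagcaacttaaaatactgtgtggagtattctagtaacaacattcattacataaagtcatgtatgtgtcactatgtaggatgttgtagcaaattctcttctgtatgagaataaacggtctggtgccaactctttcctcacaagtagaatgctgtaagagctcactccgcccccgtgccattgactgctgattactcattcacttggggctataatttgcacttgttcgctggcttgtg
Akr1c12: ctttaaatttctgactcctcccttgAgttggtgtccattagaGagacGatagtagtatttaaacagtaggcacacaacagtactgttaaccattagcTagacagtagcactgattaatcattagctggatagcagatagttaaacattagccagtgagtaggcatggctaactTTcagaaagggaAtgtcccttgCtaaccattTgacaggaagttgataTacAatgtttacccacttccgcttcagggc
Akr1c13: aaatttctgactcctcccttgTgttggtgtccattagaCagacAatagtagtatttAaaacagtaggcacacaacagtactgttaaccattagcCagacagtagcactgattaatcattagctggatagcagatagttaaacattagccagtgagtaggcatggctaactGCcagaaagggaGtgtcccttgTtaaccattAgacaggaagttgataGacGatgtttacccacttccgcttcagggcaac
Aligned with free ends, the windows of Akr1c12 and Akr1c13 shared 235 of 246 aligned bases (95.5% identical, 11 mismatched and 1 gapped), against 58.4% to 68.1% in the other pairs of the 7 members. The transcripts of the pair are also known to be close, and genes so alike may share signal on an array, so the split of signal between Akr1c12 and Akr1c13 is uncertain.

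Motifs were searched on both strands of these windows for all 7 members, and a match of letters is a description, not a binding site. TGACNNNGC, the core of the antioxidant response element, was in 0 of the 7 windows and in 10.2% of 32851 promoter windows of the same length. TGANTCA, the AP-1 motif, which can overlap the first, was in 0 of 7 and in 6.75% of all windows. TATAAA was in 1 of 7, on the opposite strand of Akr1b8 at position -159 from its start, and in 12.4% of all windows.

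Akr1c18 encodes a hydroxysteroid dehydrogenase that inactivates progesterone and is best known from the ovary. In Pan02KD-CTL its signal was 12.40 in normal medium and 12.06 in H2O2. On the arrays labelled Pan02KD it was 7.21 and 7.61, in Pan02OE 6.82 and 6.22, and in Pan02OE-CTL 6.66 and 5.92. The gene was thus bright in a single line, the scrambled shRNA control, and in the other 3 lines only the H2O2 array labelled Pan02KD lay past the brightest background probe set. Both Pan02KD-CTL arrays lay above every array of the other lines. The arrays labelled Pan02KD lay above both overexpression-system lines, in a range where signal and background overlap, and the Pan02OE and Pan02OE-CTL arrays overlapped.

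Akr1c18 was lower on the arrays labelled Pan02KD than in Pan02KD-CTL by 4.82 (log2, SE 0.251), by 5.19 in normal medium and by 4.45 in H2O2. Since the lower line has a mean below the brightest background probe set, this is a bound, and Pan02KD-CTL was at least 26.8-fold brighter (measured means 12.23 and 7.41). Pan02KD-CTL was also above the other control line, Pan02OE-CTL, by 5.93 (log2, SE 0.251; 5.73 in normal medium and 6.13 in H2O2), again at least 26.8-fold. The comparison of the knockdown-system lines and that of the control lines use the same Pan02KD-CTL arrays, and neither gives an independent reading of the level in that line. Pan02OE and Pan02OE-CTL differed in Akr1c18 by 0.23 (SE 0.251), with both lines in the background range.

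**Figure D1:**
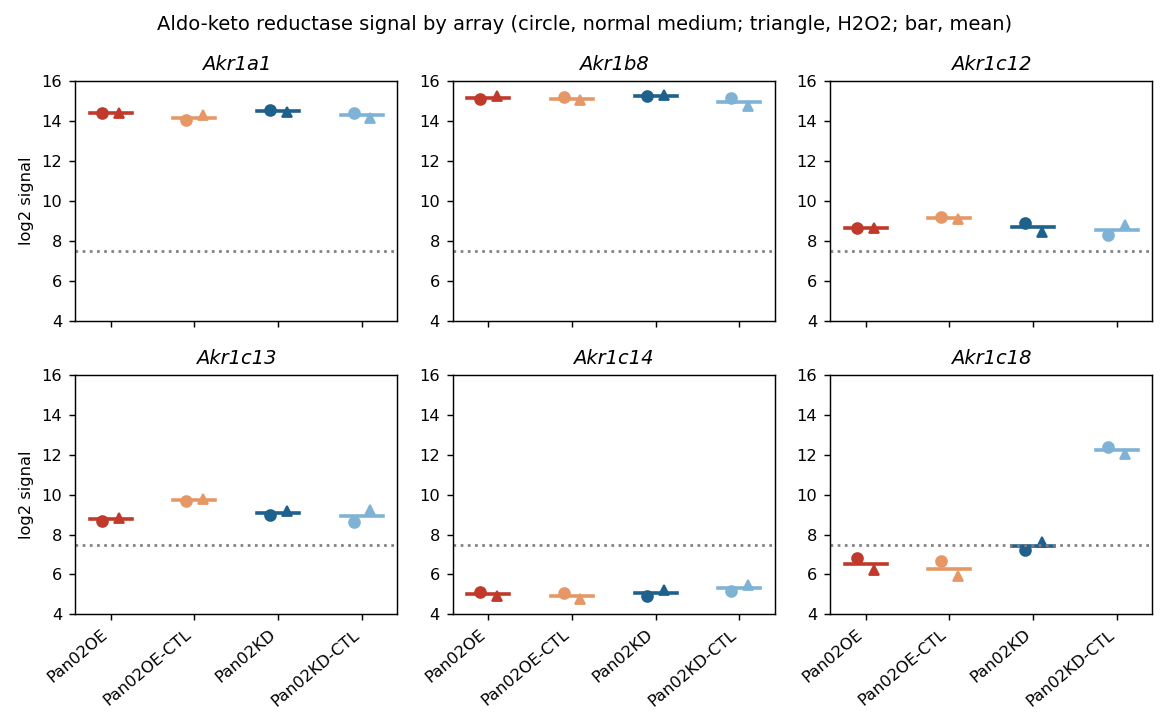
log2 signal (vertical axis) of the 6 measured aldo-keto reductases on the 8 arrays, by line; circles are normal medium, triangles H2O2, bars the mean of the 2 arrays, and the dotted line is the brightest background probe set (7.48). Akr1c18 stands at 12.40 and 12.06 in Pan02KD-CTL and at or near background elsewhere, while Akr1a1 and Akr1b8 span 0.505 and 0.520 over all 8 arrays.

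Akr1c13 and Akr1c12 are hydroxysteroid dehydrogenase-like members whose physiological substrates are less settled. Akr1c13 had a signal of 9.67 and 9.79 (normal medium and H2O2) in Pan02OE-CTL, against 8.70 and 8.84 in Pan02OE, 8.96 and 9.20 on the arrays labelled Pan02KD, and 8.63 and 9.21 in Pan02KD-CTL. The Pan02OE-CTL arrays lay above all others. The arrays labelled Pan02KD came next and did not overlap Pan02OE, while Pan02KD-CTL overlapped both. Pan02OE was lower than its control by 0.96 (SE 0.168), by 0.97 in normal medium and 0.96 in H2O2, and Pan02OE-CTL was 1.95-fold above Pan02OE, 1.57-fold above the arrays labelled Pan02KD and 1.75-fold above Pan02KD-CTL. The knockdown-system lines differed by 0.16 (SE 0.168).

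Akr1c12 read 9.21 and 9.08 in Pan02OE-CTL, 8.66 and 8.61 in Pan02OE, 8.86 and 8.46 on the arrays labelled Pan02KD, and 8.30 and 8.80 in Pan02KD-CTL. Its order was headed by the same line: Pan02OE-CTL lay apart, 1.42-fold above Pan02OE, 1.40-fold above the arrays labelled Pan02KD and 1.51-fold above Pan02KD-CTL, and the arrays of the other 3 lines overlapped. Pan02OE was lower than Pan02OE-CTL by 0.51 (SE 0.210), and the knockdown-system lines differed by 0.11 (SE 0.210). The signals of Akr1c12 and Akr1c13 had a Pearson correlation of 0.805 over the 8 arrays, which share lines. As genes so alike may share signal, these may not be separate readings.

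Akr1c14, the 3α-hydroxysteroid dehydrogenase of the cluster, lay in the background range on all 8 arrays, from 4.78 to 5.46, and no order of the lines is read from it. It stands first in the chromosomal order, followed by Akr1c18, Akr1c13, Akr1c19, Akr1c12, Akr1c6, Akr1c20, Akr1c21 and Akr1e1. Of these 9 genes 8 were measured and 4 had a line mean above background, namely Akr1c18, Akr1c13, Akr1c12 and Akr1e1. Akr1c13, the neighbour of Akr1c18 on one side, differed by 0.16 between the knockdown-system lines, where Akr1c18 differed by -4.82. Akr1c14, the neighbour on the other side, had a correlation of 0.746 with Akr1c18 over the 8 arrays, with all of its own readings in the background range.

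**Figure D2:**
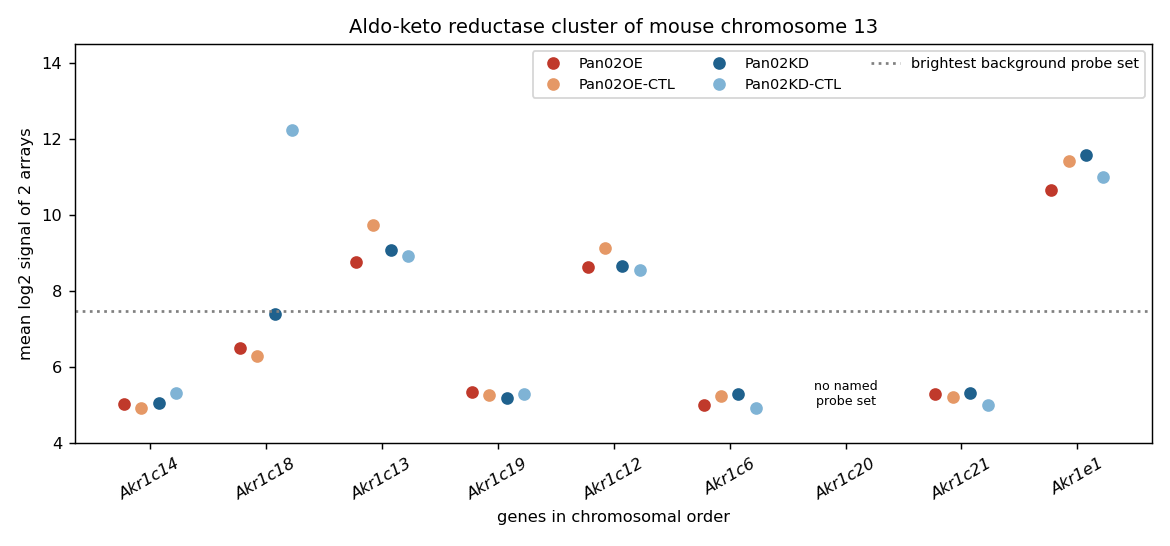
Mean log2 signal of 2 arrays (vertical axis) in each of the 4 lines for the aldo-keto reductase genes of chromosome 13 in their order along the chromosome; the dotted line is the brightest background probe set, and Akr1c20 has no named probe set. The Pan02KD-CTL mean of 12.23 for Akr1c18 stands apart, while Akr1c14, Akr1c19, Akr1c6 and Akr1c21 lie below background in all lines.

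Akr1b8, an aldose reductase-like enzyme first found as a fibroblast growth factor-induced protein, was bright in every line. It read 15.09 and 15.24 in Pan02OE, 15.19 and 15.03 in Pan02OE-CTL, 15.23 and 15.29 on the arrays labelled Pan02KD, and 15.14 and 14.77 in Pan02KD-CTL. The overexpression-system lines overlapped (difference 0.06, SE 0.173). The arrays labelled Pan02KD lay above those of both control lines, by 0.31 (SE 0.173) over Pan02KD-CTL, and the remaining pairs of lines overlapped.

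Akr1a1, aldehyde reductase, which in the mouse also serves the synthesis of vitamin C, lies on chromosome 4 apart from both clusters. It read 14.38 on both Pan02OE arrays, 14.04 and 14.30 in Pan02OE-CTL, 14.54 and 14.45 on the arrays labelled Pan02KD, and 14.40 and 14.17 in Pan02KD-CTL. The arrays labelled Pan02KD lay above all others, by 0.21 (SE 0.167) over Pan02KD-CTL, and Pan02OE lay above Pan02OE-CTL by 0.21 (SE 0.167). Akr1a1 and Akr1b8 spanned 0.505 and 0.520 over the 8 arrays, against 1.16 for Akr1c13, 0.904 for Akr1c12 and 6.48 for Akr1c18.

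**Figure D3:**
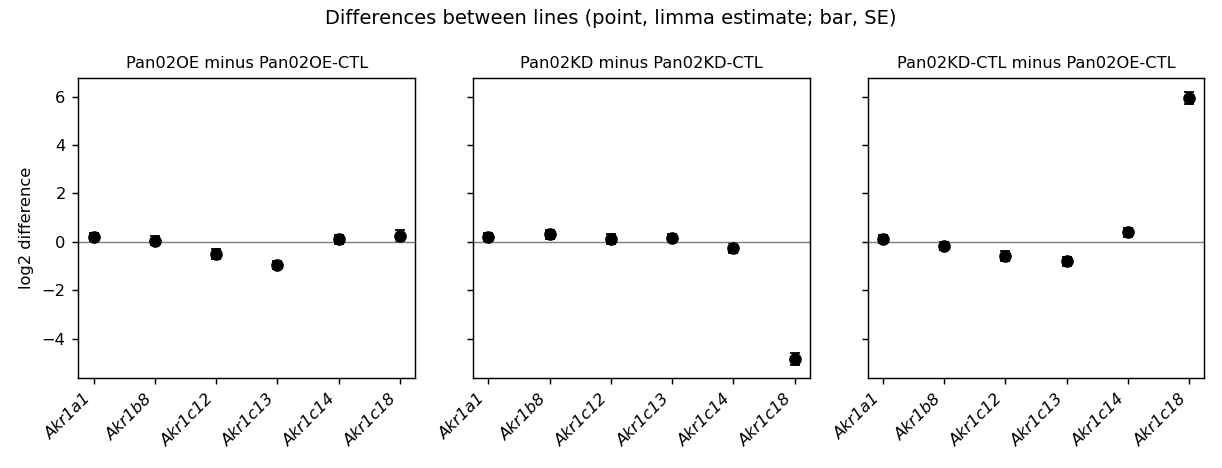
Difference in log2 signal (vertical axis) for the 6 measured members in the 3 comparisons of lines; points are limma estimates over both media and bars are their standard errors. Akr1c18 is at -4.82 on the arrays labelled Pan02KD and at 5.93 between the control lines, and Akr1c13 at -0.96 in Pan02OE; the other differences lie between -0.81 and 0.39.

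Across all genes, 16.5% passed an adjusted p of 0.05 between Pan02OE and Pan02OE-CTL (1370 genes higher and 1851 lower), and 1 of the 6 members did, Akr1c13, which was lower (7.02% of all genes were called higher and 9.49% lower). Between the arrays labelled Pan02KD and Pan02KD-CTL 13.6% of genes passed (1480 higher and 1165 lower) and 1 of 6 members, Akr1c18, lower (7.59% of all genes were called higher and 5.97% lower). Between the control lines 16.9% passed and 2 of 6 members, Akr1c18 higher and Akr1c13 lower (7.64% and 9.28% of all genes). The comparisons of lines share control arrays and the members were chosen with these differences known, so nothing is read from the counts. The median difference of the 6 members was 0.08, 0.14 and -0.02 in the 3 comparisons, beside 0.04, -0.003 and 0.02 over all genes. Akr1c13 did not pass in Pan02OE when the Pan02OE-CTL array in normal medium was left out (its difference ranged from -1.06 to -0.87 on leaving out single arrays), nor between the control lines without that array or without the Pan02KD-CTL array in normal medium. The measured difference of Akr1c18 ranged from -5.30 to -4.34 in the knockdown system and from 5.65 to 6.21 between the control lines on leaving out single arrays.

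The comparisons within the overexpression and within the knockdown system were also set against each other. The difference of the differences passed in 22.3% of genes (9.99% positive and 12.3% negative) and in 2 of the 6 members. The measured value was 5.05 for Akr1c18, for which only Pan02KD-CTL has a mean above background, and -1.12 for Akr1c13, most of it from the overexpression system.

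H2O2 was compared with normal medium over the 4 lines, a comparison that addresses how the family stands under an oxidant challenge. None of the 6 members passed, and 0% of all genes did by limma, with 1231 genes at an unadjusted p under 0.05 and 2 genes past the threshold with a trended, robust variance. Akr1c13 was higher in H2O2 in 4 of 4 lines, by 0.14 in Pan02OE, 0.12 in Pan02OE-CTL, 0.24 on the arrays labelled Pan02KD and 0.58 in Pan02KD-CTL (0.27 over all lines, SE 0.119). Akr1c18 was lower by 0.32 over the lines (SE 0.177), lower in 3 lines and higher on the arrays labelled Pan02KD by 0.40, and only in Pan02KD-CTL, with a difference of -0.34, are both readings above background. Akr1c12 differed in sign between lines, from -0.40 on the arrays labelled Pan02KD to 0.50 in Pan02KD-CTL, as did Akr1a1 (-0.23 to 0.27) and Akr1b8 (-0.37 to 0.15). With 1 array per line and medium, a difference within a line has no replicate.

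**Figure D4:**
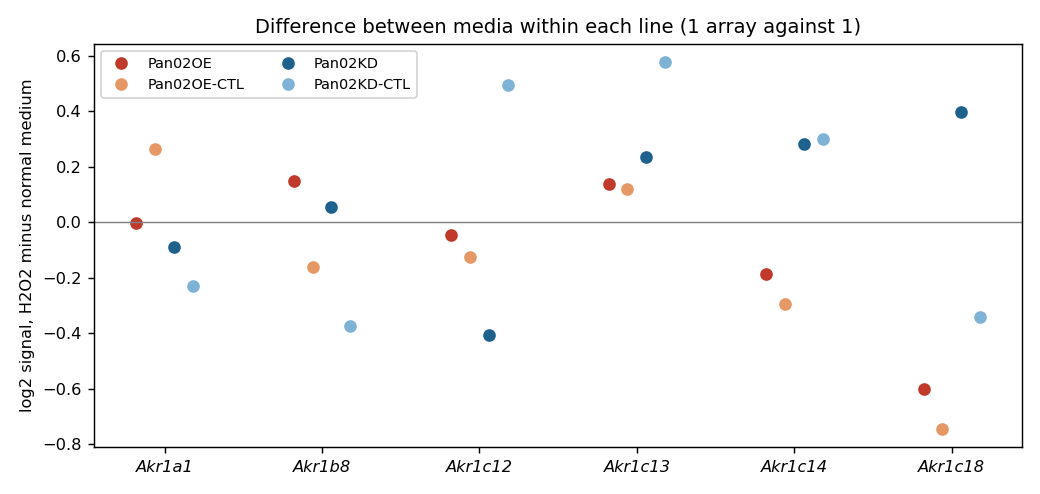
log2 signal in H2O2 minus that in normal medium (vertical axis) for the 6 measured members, with 1 point for each line and 1 array on each side of the difference. Akr1c13 lies above 0 in 4 of 4 lines, from 0.12 to 0.58, and each of the other members has lines on both sides of 0.

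Other genes of the family were given from a list of 14, of which 11 were measured and 2, Akr1b10 and Akr1e1, had a line mean above background. Akr1b10, next to Akr1b8 on chromosome 6, read 11.81 and 11.92 in Pan02OE against 12.33 and 12.58 in Pan02OE-CTL, and fell by 0.59 (SE 0.160, limma adjusted p = 0.034). The knockdown-system lines, at 12.07 and 12.25 and at 12.03 and 11.88, differed by 0.21 (adjusted p = 0.49). Akr1e1, 1,5-anhydrofructose reductase, read 10.82 and 10.50 in Pan02OE against 11.40 and 11.43 in Pan02OE-CTL, and fell by 0.76 (SE 0.164, adjusted p = 0.012). It rose on the arrays labelled Pan02KD, at 11.61 and 11.55 against 10.93 and 11.07 (difference 0.58, adjusted p = 0.047). Kcnab2, a potassium channel beta subunit of the family, passed in Pan02OE (0.72, SE 0.188, adjusted p = 0.029) in the background range, from 5.58 to 6.49. Its difference on the arrays labelled Pan02KD was -0.60 (adjusted p = 0.069), which passed with the filter at the 40th percentile (0.042) and without the Pan02KD-CTL array in normal medium (0.035). The remaining 8 (Akr1c6, Akr1c19, Akr1c21, Akr1cl, Akr1d1, Akr7a5, Kcnab1 and Kcnab3) were below background in all lines, with no call. In this list 1 gene was higher and 2 lower in Pan02OE (median 0.02, beside 0.04 over all genes), and 1 higher and 0 lower on the arrays labelled Pan02KD (median 0.13, beside -0.003). Of all genes 7.02% were called higher and 9.49% lower in Pan02OE, and 7.59% and 5.97% on the arrays labelled Pan02KD.

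These family calls rest on few arrays. Akr1b10 in Pan02OE did not pass without either Pan02OE array (adjusted p = 0.16 and 0.15, normal medium and H2O2), either Pan02OE-CTL array (0.095 and 0.23) or either array labelled Pan02KD (0.057 each). Akr1e1 in Pan02OE did not pass without the Pan02OE array in H2O2 (0.14) or either Pan02OE-CTL array (0.064 and 0.10), and Kcnab2 without the Pan02OE array in normal medium (0.26) or either Pan02OE-CTL array (0.15 and 0.14). In the knockdown system Akr1e1 did not pass without either Pan02OE-CTL array (0.072 each), either array labelled Pan02KD (0.20 and 0.23) or either Pan02KD-CTL array (0.19 and 0.074), nor after cyclic loess (0.077) or quantile normalization (0.072).

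Genes of the NRF2 pathway were given from a list of 34, of which 31 were measured and 27 lay above background. In Pan02OE 6 of the 31 rose and 4 fell (median 0.21, beside 0.04 over all genes), where 7.02% of all genes rose and 9.49% fell. On the arrays labelled Pan02KD 2 rose and 11 fell (median -0.39, beside -0.003), where 7.59% of all genes rose and 5.97% fell. Between the control lines, a comparison that uses the same Pan02KD-CTL arrays, 11 were higher and 2 lower in Pan02KD-CTL (median 0.37, beside 0.02). Of all genes 7.64% were higher in Pan02KD-CTL and 9.28% lower. The count of 13 in the knockdown system was 6 and 4 without the array labelled Pan02KD in normal medium and in H2O2, and 8 and 7 without the Pan02KD-CTL array in each, an alternative chosen after seeing the data. Hmox1, heme oxygenase 1, read 13.88 and 13.78 in Pan02OE against 12.43 and 12.29 in its control (rise by 1.47, SE 0.155, adjusted p = 2.5e-04), and 13.86 and 13.91 on the arrays labelled Pan02KD against 15.01 and 15.18 (fell by 1.20, adjusted p = 0.0011), while Pan02KD-CTL was above Pan02OE-CTL by 2.73 (adjusted p = 4.7e-06). Nfe2l2, which encodes NRF2 itself, fell by 1.22 on the arrays labelled Pan02KD (12.14 and 12.12 against 13.38 and 13.32, adjusted p = 7.4e-04) and differed by 0.44 in Pan02OE (adjusted p = 0.075). Its Pan02OE call appeared with 3 alternatives, at adjusted p = 0.014 to 0.037.

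Of the glutathione S-transferases, whose close paralogues may share signal, Gsta2 rose in Pan02OE by 1.70 (SE 0.297, adjusted p = 0.0040; at least 2.36-fold, as its control mean of 7.01 is below background). Gstm1 fell by 1.54 in Pan02OE (SE 0.153, adjusted p = 1.8e-04) and rose on the arrays labelled Pan02KD by 0.83 (adjusted p = 0.0070), and Gstp1 fell by 1.08 on the latter (adjusted p = 0.0018). In each of these genes a control line stood apart. Pan02OE-CTL was lowest in Gsta2 (other line means 8.55 to 8.95) and highest in Gstm1 (11.39, others 9.09 to 9.92). Pan02KD-CTL was highest in Gstp1 (15.20, others 14.04 to 14.46). Abcc1, an exporter of glutathione conjugates, fell by 1.16 in Pan02OE (adjusted p = 6.7e-04) and rose on the arrays labelled Pan02KD by 1.38 (adjusted p = 4e-04). Its means were 13.23 in Pan02OE and 13.03 in Pan02KD-CTL, beside 14.39 in Pan02OE-CTL and 14.40 on the arrays labelled Pan02KD. The control lines thus differed too (Pan02KD-CTL minus Pan02OE-CTL -1.37, adjusted p = 2.2e-04). Srxn1, sulfiredoxin, rose in Pan02OE by 1.19 (SE 0.290, adjusted p = 0.021) and fell by 1.01 on the arrays labelled Pan02KD (adjusted p = 0.0495). Gstm1 did not pass on the arrays labelled Pan02KD without that line's H2O2 array (0.098). Srxn1 did not pass in Pan02OE without either Pan02OE array (0.068 and 0.13) or the Pan02OE-CTL array in normal medium (0.20), nor in the knockdown system without either Pan02OE array (0.058 each), either array labelled Pan02KD (0.26 and 0.16) or the Pan02KD-CTL array in normal medium (0.24), nor with all named probe sets (0.050) or without a medium term (0.066).

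**Figure D5:**
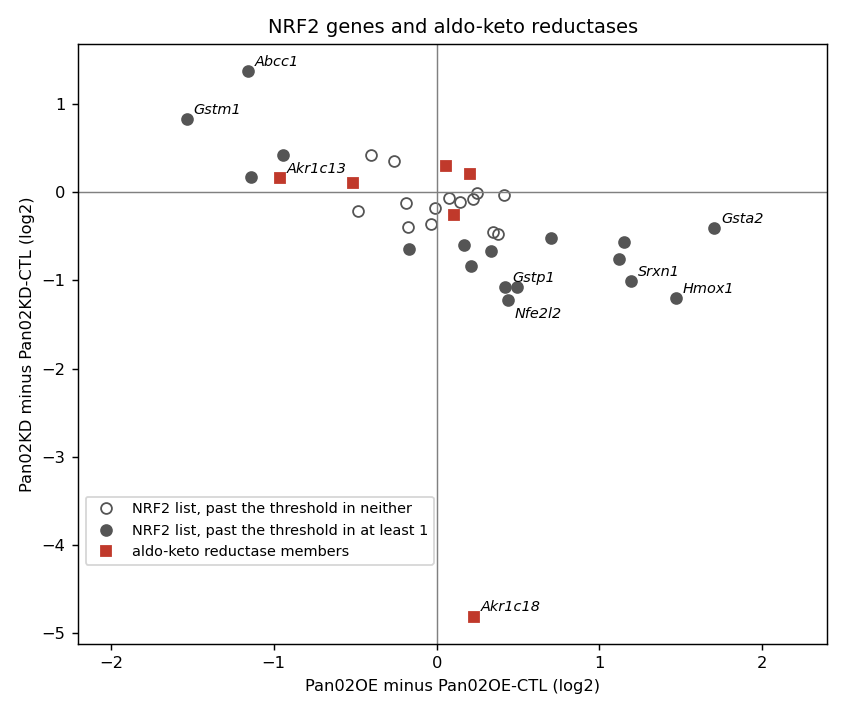
log2 difference of Pan02OE from Pan02OE-CTL (horizontal axis) and of the arrays labelled Pan02KD from Pan02KD-CTL (vertical axis) for genes of the NRF2 list (circles, filled where past an adjusted p of 0.05 in at least 1 comparison) and the 6 members (squares). Hmox1 is at 1.47 and -1.20 and Abcc1 at -1.16 and 1.38, while Akr1c18 lies at -4.82 on the vertical axis and 0.23 on the horizontal.

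Of 43 listed enzymes that handle carbonyls and aldehydes outside the family, 42 were measured and 23 lay above background. In Pan02OE 5 rose and 8 fell (median -0.17, beside 0.04 over all genes), where 7.02% of all genes rose and 9.49% fell. On the arrays labelled Pan02KD 8 rose and 3 fell (median 0.03, beside -0.003), where 7.59% of all genes rose and 5.97% fell. Between the control lines 7 were higher and 6 lower in Pan02KD-CTL (median 0.15, beside 0.02), where 7.64% of all genes were higher and 9.28% lower. Dhrs3, which reduces retinaldehyde to retinol, read 11.86 and 12.11 in Pan02OE against 6.08 and 5.61 in its control, at least 22.7-fold (measured 6.14, adjusted p = 2.2e-07). It read 4.67 and 5.09 on the arrays labelled Pan02KD against 10.49 and 10.63 in Pan02KD-CTL, at least 8.47-fold lower (adjusted p = 1.1e-06). The control lines also differed in Dhrs3, with Pan02KD-CTL higher by a measured 4.72 (adjusted p = 1.1e-06). Rdh10, which oxidises retinol to retinaldehyde, fell by 2.15 in Pan02OE (SE 0.176, adjusted p = 5.5e-05) and differed by 0.14 in the knockdown system (adjusted p = 0.69). Its mean was 14.00 in Pan02OE-CTL and 11.31 to 11.85 in the other lines, so the control was the line apart. Dhrs1, another short-chain dehydrogenase, fell by 2.76 in Pan02OE (adjusted p = 9.4e-06) and rose on the arrays labelled Pan02KD by 2.50 (adjusted p = 2.4e-05). Its means were 11.92 in Pan02OE and 12.24 in Pan02KD-CTL, beside 14.68 in Pan02OE-CTL and 14.74 on the arrays labelled Pan02KD. The control lines thus differed too (Pan02KD-CTL minus Pan02OE-CTL -2.44, adjusted p = 1.4e-05).

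Among the aldehyde dehydrogenases, Aldh3a1 fell by 2.30 in Pan02OE (SE 0.149, adjusted p = 1.4e-05) and rose on the arrays labelled Pan02KD by 0.74 (adjusted p = 0.011). Aldh1l2, of mitochondrial folate metabolism, fell by 0.80 (adjusted p = 0.0069) and rose by 1.05 (adjusted p = 0.0022) in the same comparisons. Aldh5a1, succinate semialdehyde dehydrogenase, rose on the arrays labelled Pan02KD by 1.08 (adjusted p = 0.0032) with all arrays below background, and differed by -0.27 in Pan02OE (adjusted p = 0.37). Aldh1l2 in Pan02OE did not pass without the Pan02OE array in H2O2 (0.078) or either Pan02OE-CTL array (0.057 and 0.060). On the arrays labelled Pan02KD, Aldh3a1 did not pass without either of that line's arrays (0.070 and 0.11) or the Pan02KD-CTL array in H2O2 (0.069), nor Aldh5a1 without that line's H2O2 array (0.055).

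Of 22 listed genes of prostaglandin synthesis, breakdown and reception, 21 were measured and 6 lay above background. In Pan02OE 1 rose and 1 fell (median 0.13, beside 0.04 over all genes), where 7.02% of all genes rose and 9.49% fell. On the arrays labelled Pan02KD 0 rose and 4 fell (median -0.13, beside -0.003), where 7.59% of all genes rose and 5.97% fell. Between the control lines 3 were higher and 1 lower in Pan02KD-CTL (median 0.17, beside 0.02), where 7.64% of all genes were higher and 9.28% lower. Abcc4, a prostaglandin exporter, rose in Pan02OE by 1.46 (SE 0.178, adjusted p = 5.8e-04) and fell by 1.44 on the arrays labelled Pan02KD (adjusted p = 9.5e-04). Its means were 14.42 in Pan02OE and 14.25 in Pan02KD-CTL, beside 12.96 in Pan02OE-CTL and 12.81 on the arrays labelled Pan02KD. The control lines thus differed too (Pan02KD-CTL minus Pan02OE-CTL 1.29, adjusted p = 0.001). Ptgs2, cyclooxygenase 2, read 16.69 and 16.76 on the arrays labelled Pan02KD and 17.46 and 17.39 in Pan02KD-CTL (fell by 0.70, adjusted p = 0.013), and its Pan02OE difference was 0.17 (adjusted p = 0.52). Ptges, an inducible prostaglandin E synthase, was above background only in Pan02KD-CTL, at 7.67 and 7.99, at least 1.27-fold over the arrays labelled Pan02KD (fell by 1.62, adjusted p = 5.5e-04). Ptges3, a prostaglandin E synthase that is also a co-chaperone, differed by 0.46 in Pan02OE (adjusted p = 0.098), a difference that passed with the filter at the background limit (0.037) or a trended, robust variance (0.031). Ptgds, prostaglandin D synthase, fell by 1.45 in Pan02OE (adjusted p = 9.8e-04) and Tbxas1, thromboxane synthase, fell by 0.78 on the arrays labelled Pan02KD (adjusted p = 0.021), both in the background range. On the arrays labelled Pan02KD, Ptgs2 did not pass without either of that line's arrays (0.11 and 0.10) or the Pan02KD-CTL array in normal medium (0.063), nor Tbxas1 without either of that line's arrays (0.058 and 0.21) or the Pan02KD-CTL array in H2O2 (0.15).

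Of 33 listed genes of steroid hormone metabolism, 28 were measured and 9 lay above background. In Pan02OE 1 rose and 2 fell (median -0.03, beside 0.04 over all genes), where 7.02% of all genes rose and 9.49% fell. On the arrays labelled Pan02KD 1 rose and 2 fell (median -0.01, beside -0.003), where 7.59% of all genes rose and 5.97% fell. Between the control lines 2 were higher and 1 lower in Pan02KD-CTL (median 0.07, beside 0.02), where 7.64% of all genes were higher and 9.28% lower. Hsd17b7, which acts in cholesterol and estradiol synthesis, rose in Pan02OE by 1.56 (SE 0.171, adjusted p = 3.1e-04), and Hsd17b4, a peroxisomal enzyme of the same group, fell by 0.72 (SE 0.158, adjusted p = 0.013). The line apart in Hsd17b7 was Pan02OE-CTL, with a mean of 10.32 against 11.72 to 11.88 in the other lines. Sult2b1, which sulfates cholesterol and other sterols, rose on the arrays labelled Pan02KD by 2.27 (13.46 and 13.31 against 11.32 and 10.92, adjusted p = 2.5e-05). Hsd3b7, of bile acid synthesis, fell by 1.44 there (8.51 and 8.60 against 9.25 and 10.74, adjusted p = 0.015), and Hsd17b3, which makes testosterone, fell by 0.60 (adjusted p = 0.034) in the background range. Pan02KD-CTL was the line apart in Sult2b1 (mean 11.12, against 12.72 to 13.38 in the other lines) and in Hsd3b7 (10.00, against 8.56 to 8.80). Star, the carrier of cholesterol into mitochondria, differed by 0.77 in Pan02OE in the background range (adjusted p = 0.077), and H2-Ke6, also named Hsd17b8, by -0.67 (adjusted p = 0.12). Both passed without either Pan02KD-CTL array (0.017 each for Star and 0.028 each for H2-Ke6), and Star also with a trended, robust variance (0.044). Hsd17b4 did not pass without either Pan02OE array (0.083 and 0.088) or the Pan02OE-CTL array in normal medium (0.15), and Hsd3b7 without the H2O2 array labelled Pan02KD (0.16). Hsd17b3 did not pass without either Pan02OE-CTL array (0.056 each), either array labelled Pan02KD (0.25 and 0.098) or either Pan02KD-CTL array (0.13 and 0.081), nor with a trended, robust variance (0.051).

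Markers of the epithelial cells also differed in these comparisons, not all in the same way. In Pan02OE 6 of 7 ductal epithelial markers rose (median 1.22), where 7.02% of all genes rose and 9.49% fell. On the arrays labelled Pan02KD 1 rose and 3 fell (median -0.43), where 7.59% of all genes rose and 5.97% fell. Cdh1 was higher in both, at means of 10.8 in Pan02OE against 8.64 in its control, and 10.6 on the arrays labelled Pan02KD against 8.2. The summed signal of the list, as log2, was 17.93 to 17.96 in Pan02OE, 16.82 to 16.97 in Pan02OE-CTL, 16.20 to 16.34 on the arrays labelled Pan02KD and 17.01 to 17.41 in Pan02KD-CTL. Of the mesenchymal and fibroblast list 0 rose and 1 fell in Pan02OE, and 1 rose and 1 fell on the arrays labelled Pan02KD, with summed signals of 17.23 to 17.45 in the overexpression-system lines and 16.36 to 16.53 in the knockdown-system lines. That sum is almost wholly Vim (17.2 and 17.4, against 16.4 and 16.5). Pdgfrb went the other way (6.8 and 7.47, against 8.23 and 9.59), and Dcn was above background only on the arrays labelled Pan02KD. The part of these shifts in the values of the aldo-keto reductases was not tested.

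The genes most like each member in pattern were taken by Pearson correlation over the 8 arrays among 3615 genes that have a line mean above background and span at least 1 log2 unit. The arrays share lines, so these values are a description. For Akr1c18 they were Npc1 (r = 0.990), which moves cholesterol out of lysosomes, Golm2 (0.979) and Prl2c1 (0.970). Akr1c18 is bright in Pan02KD-CTL only, so genes picked by correlation with it are bound to be highest in that line, and nothing is read from that. In Pan02KD-CTL Npc1 had a mean of 11.9 against 10.7 to 10.9 in the other lines, and Prl2c1 9.54 against 7.73 to 8.09. Golm2 had 8.69 against 5.70 to 6.05, and so was above background in that line only. For Akr1c13 they were Lrrc58 (0.988), Sulf2 (0.968) and Itpripl1 (0.968), and for Akr1c12 Brat1 (0.945), Slc18b1 (0.934) and Il1rn (0.912). For Akr1b8 they were Pcdh19 (0.954), Ppp1r16a (0.924) and Timp1 (0.911), and for Akr1a1 Ndufaf3 (0.933), Nol12 (0.905) and Sap30 (0.882). Since Akr1a1 and Akr1b8 vary by about as much within a line as between lines (residual SD 0.147 and 0.166, SD of the line means 0.139 and 0.128), their likest genes follow differences between single arrays.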

How the data were processed

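Total RNA of 8 cultures was run on Clariom S mouse arrays by the study's service provider. The deposited values are log2 signals that the authors made with the Transcriptome Analysis Console, for which no version or normalization was found in the labels or methods; the log base was inferred from the range of the values. The series lists 9 samples, of which 1, a control RNA of the manufacturer, has an empty column and was left out. Of 28846 probe sets 6640 are controls and 22206 are for genes; 19572 have 1 symbol, 0 several and 2634 none. The probe set with the highest mean was kept per gene (19505 genes), with no further normalization. Lines and medium were fitted as additive terms over 8 arrays with limma 3.58.1 in R 4.3.3 (3 residual and 6.17 prior degrees of freedom), with Benjamini-Hochberg adjustment over all genes and a threshold of 0.05. The brightest of 23 antigenomic probe sets (3.40 to 7.48) served as the background limit, passed by a line mean of 8787 genes. Where only the brighter line of a comparison is above it, the fold is given as a bound, computed from that line's mean and the limit, beside the measured difference. P-values measure the spread between these arrays that the additive terms leave, and the number of arrays limits the precision. With 1 array per line and medium, that spread cannot be separated from differences between lines in their response to the medium.

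The members and gene lists were chosen with earlier results of these data known. Named beside the members are Nlrx1, all measured genes of the family list, of every other list the 4 genes with the largest difference in each modified line, and the 3 genes most correlated with each member. Promoter windows are RefSeq, assembly GRCm38.p6, aligned with Biopython 1.88, and that assembly gave the order of genes; 7 of 7 members matched. Alternatives were median centring, cyclic loess, quantile normalization, filters on dim genes (above the 40th percentile of mean signal, or above background), all named probe sets, a trended robust variance, a model without the other term, and leaving out each array.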

Additional observations from a re-analysis of the deposited data

Results flagged for a closer look

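The results here were picked because the difference between the overexpression comparison and the knockdown-system comparison (log2, the first minus the second) itself passed limma's adjusted p of 0.05. This difference contains the gap between the control lines (Pan02KD-CTL minus Pan02OE-CTL). It does not by itself show opposite effects in the modified lines. For Nlrx1, the introduced gene, it was 9.87 as measured, with the signal above background in Pan02OE only. In the family it was -0.797 for Akr1b10, -1.34 for Akr1e1 and 1.32 for Kcnab2, the last in the background range. The control gaps of these genes were -0.505, -0.418 and 0.314.

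In the NRF2 list the difference of the comparisons was 2.67 for Hmox1, 2.20 for Srxn1, 2.11 for Gsta2, 1.66 for Nfe2l2 and 1.5 for Gstp1, and -2.37 for Gstm1 and -2.54 for Abcc1. In the same order the control gaps were 2.73, 0.01, 1.94, 0.48, 1.16, -2.30 and -1.37. Among the other carbonyl enzymes the difference of the comparisons was 11.8 for Dhrs3, with the dimmer line of both comparisons below background. It was -5.26 for Dhrs1, -3.03 for Aldh3a1, -2.29 for Rdh10, -1.86 for Aldh1l2 and -1.35 for Aldh5a1, the last below background in all lines. In order from Dhrs3 the control gaps were 4.72, -2.44, -0.82, -2.68, 1.12 and -1.33. Among the prostaglandin genes the difference of the comparisons was 2.89 for Abcc4, 1.39 for Ptges, 1.15 for Tbxas1, 0.87 for Ptgs2 and -1.94 for Ptgds. Tbxas1 and Ptgds were below background in all lines, and Ptges was above it only in Pan02KD-CTL. In order from Abcc4 the control gaps were 1.29, 1.66, 0.76, 0.375 and -1.21. Among the steroid genes the difference of the comparisons was 1.53 for Hsd17b7 (control gap 1.40), -1.17 for Hsd17b4 (-0.249) and -2.50 for Sult2b1 (-1.83). Of these, Akr1b10, Tbxas1 and Ptgs2 did not pass on leaving out at least 1 array (adjusted p of 0.058 to 0.14, 0.062 and 0.056 to 0.064).

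For 2 members the comparisons ran in opposite directions in both media. The measured difference is given as a description with no test, since the members were chosen with their values known. It was 5.05 for Akr1c18, with a mean above background in Pan02KD-CTL only, and 0.36 for Akr1c14, which is below background on all arrays. The Pan02OE difference of both members changed sign on leaving out single arrays. No array was set apart from its group, since a line has only 2 arrays.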

How the results depend on the processing

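Leaving out 1 array at a time gave 1724 to 3588 genes past the threshold in Pan02OE (3221 with all arrays), 1055 to 2454 on the arrays labelled Pan02KD (2645), 1704 to 3074 between the control lines (3302), 3016 to 4345 for the difference of the comparisons (4353) and 0 to 1 for H2O2 (0, and 2 with a trended, robust variance). Counts moved by over 1.5 times in Pan02OE without its arrays in normal medium (1907) or H2O2 (1806) or those of Pan02OE-CTL (1724 and 1740), on the arrays labelled Pan02KD without that line's arrays (1213 and 1055) or the Pan02KD-CTL array in H2O2 (1598), and between the control lines without the Pan02OE-CTL arrays (1871 and 1704) or the Pan02KD-CTL array in H2O2 (2187); the single H2O2 gene appeared without either Pan02KD-CTL array. A line left with 1 array is assumed to vary like the other lines. Of the members' differences under the alternatives 438 moved by less than the spread between arrays (1 residual SD) and 32 by more, mostly on leaving out an array. The small differences of Akr1c12 and Akr1c13 in the knockdown system changed sign (-0.23 to 0.45 and -0.05 to 0.37). So did those of Akr1b8 (-0.10 to 0.21), Akr1c14 (-0.105 to 0.322) and Akr1c18 (-0.05 to 0.51) in Pan02OE. Between the control lines Akr1a1 (-0.07 to 0.30) and Akr1b8 (-0.35 to 0.04) changed sign. The H2O2 differences of Akr1a1, Akr1b8, Akr1c12 and Akr1c14 also did, and the difference of the comparisons for Akr1a1. Akr1c12 passed between the control lines with the filter at the background limit or without the Pan02KD-CTL array in H2O2. Over the named genes that are no members 1657 values stayed on their side of the threshold, 67 lost the call, 28 gained it and 0 reversed. No paired analysis was possible because the labels carry no replicate numbers, beyond the pairing of arrays by medium, which the model already holds as a term; without that term 3217 genes passed in Pan02OE, 2613 on the arrays labelled Pan02KD and 3249 between the control lines. Signal over background limits Akr1c14, Akr1c18 outside Pan02KD-CTL and most family genes.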
